A study of Mus musculus with 9 samples.

Results

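STAT factors and the feedback genes that limit them were followed as 9 genes, Stat2, Stat3, Stat4, Stat5a, Stat5b, Stat6, Socs1, Socs3 and Cish, in virus-specific memory T cells of the mouse. The genes were chosen by name as members of the cytokine signalling pathway, and all 9 were present among the 48663 named rows of the deposited count table. RNA was sequenced from 9 samples of spleen T cells sorted with peptide-MHC tetramers 30 days after mice were given LCMV Armstrong, a virus strain that causes an acute infection. CD4 ThpokAD cells (3 libraries) bound the class II GP66:I-Ab tetramer and came from Ox40-Cre+ Thpokfl/fl mice, which delete the floxed Thpok gene where Ox40, a receptor induced on activated T cells, is expressed. CD8 control cells (3 libraries), sorted with the class I GP33:H-2Db tetramer, came from Ox40-Cre- mice. CD4 control cells (3 libraries) bound GP66:I-Ab and also came from Ox40-Cre- mice. All 9 samples share the infection, the organ and the time. The CD8 control group differs from the other two in lineage, peptide and tetramer at once, and Cre is present in CD4 ThpokAD mice and absent in both control groups, so the effects of these differences cannot be told apart. The labels give no age or strain, and do not say whether the Cre-negative mice carried floxed alleles.

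Thpok, encoded by Zbtb7b, is the transcription factor that commits developing T cells to the CD4 fate. Cytokine receptors carry JAK kinases, which phosphorylate the receptor and then STAT proteins, and phosphorylated STAT dimers enter the nucleus and bind DNA at sites with the core letters TTCNNNGAA. STAT4 acts below the interleukin-12 receptor, STAT6 below the interleukin-4 receptor, STAT3 below the interleukin-6, interleukin-10 and interleukin-21 receptors, STAT5A and STAT5B below the interleukin-2, interleukin-7 and interleukin-15 receptors, and STAT2 below the type I interferon receptor. The SOCS proteins and CIS, the product of Cish, are induced by STATs and bind receptors or JAKs to limit the signal, so the RNA of Socs1, Socs3 and Cish is both a product of the pathway and part of its brake.

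In the GENCODE annotation of mm10, Stat5b (chr11:100780731-100850724, minus strand), Stat5a (chr11:100859351-100885169, plus strand) and Stat3 (chr11:100885098-100939540, minus strand) are neighbours, and Socs3 lies further along the same chromosome (chr11:117966079-117970047, minus strand). Stat6 (chr10:127642986-127660957) and Stat2 (chr10:128270559-128292849) lie on chromosome 10, both on the plus strand. Stat4 (chr1:51987148-52107189, plus strand), Socs1 (chr16:10782240-10785536, minus strand) and Cish (chr9:107296026-107302784, plus strand) lie on chromosomes of their own among the 9.

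The promoters of Socs3 and Cish are shown because these 2 genes had the largest fold differences involving CD8 control cells and because both windows hold the STAT core letters. Each line gives 280 bases 5' to 3' on the gene's strand, from 250 bases before the RefSeq gene start to 30 bases into the gene, in build GRCm38 (mm10), with matches to TTCNNNGAA in capitals.
Socs3: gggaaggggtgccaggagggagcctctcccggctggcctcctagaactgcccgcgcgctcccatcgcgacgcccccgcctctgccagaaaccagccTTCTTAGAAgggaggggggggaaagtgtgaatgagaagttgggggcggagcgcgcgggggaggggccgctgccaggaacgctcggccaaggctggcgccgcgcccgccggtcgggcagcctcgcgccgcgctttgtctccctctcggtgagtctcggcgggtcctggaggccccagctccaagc
Cish: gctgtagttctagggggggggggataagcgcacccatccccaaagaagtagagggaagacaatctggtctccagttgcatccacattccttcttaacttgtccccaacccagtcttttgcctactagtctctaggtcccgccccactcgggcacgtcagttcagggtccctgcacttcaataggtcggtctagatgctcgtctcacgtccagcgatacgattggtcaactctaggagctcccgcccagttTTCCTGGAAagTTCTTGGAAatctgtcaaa
The Socs3 window lies at chr11:117969337-117969616 on the minus strand and holds 1 match, TTCTTAGAA, which begins 154 bases before the gene start. The Cish window lies at chr9:107296409-107296688 on the plus strand and holds 2 matches, TTCCTGGAA from base 1 and TTCTTGGAA from base 12 of the gene. RefSeq had 12 promoter entries for the 9 genes, with 2 entries for 3 of them, and 2 genes held a match. The shares over all mouse promoters given next count windows and not genes. The motif reads the same on both strands, so both strands were searched at once. Of 32851 mouse promoter windows of the same length, 7.83% held at least 1 match and 0.408% held 2 or more. The same motif with 4 bases between TTC and GAA, a spacing best known from STAT6 binding, was matched in 1 gene, Stat2 (TTCCCTAGAA, 210 bases before the gene start), and in 6.5% of all windows. A match is a run of letters and not a measured binding site, and the GENCODE annotation places the starts of Socs3 and Cish further upstream than RefSeq.

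Library totals ran between 16664474 and 38981516 counts, and each of the 9 genes held 358 to 17717 counts per library. Levels are given as CPM, read counts relative to library size with edgeR's TMM factors, and every test is edgeR's quasi-likelihood test over 15738 genes with Benjamini-Hochberg adjusted p, called when under 0.05. All 9 genes passed the filter on low counts. Zbtb7b averaged 0.807 ± 0.0953 CPM in CD4 ThpokAD cells, 20.8 ± 2.87 CPM in CD8 control cells and 45.0 ± 5.68 CPM in CD4 control cells (SD, n = 3 each). Cd4 averaged 635 CPM in CD4 ThpokAD cells, 1.28 CPM in CD8 control cells, and 1354 CPM in CD4 control cells, and Cd8a averaged 49.6 CPM, 813 CPM and 3.24 CPM in the same 3 groups. These are bulk samples, so fewer cells of a type and less RNA per cell cannot be told apart.

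Socs3 was called in all 3 comparisons, Cish and Stat5b in 2 each, and Stat3 and Stat5a in 1 each, while Stat2, Stat4, Stat6 and Socs1 were called in none by edgeR. In CD4 ThpokAD against CD4 control cells, Socs3 and Stat5b fell, that is 2 of 9 genes against 2.74% of all tested genes called in either direction, 0.928% lower and 1.81% higher. No member rose in that comparison with edgeR, DESeq2 or limma-trend, nor did any at an unadjusted p under 0.05 in edgeR. In CD8 control against CD4 control cells, Stat3, Stat5a, Stat5b, Socs3 and Cish fell, 5 of 9 genes against a background of 11.7% called, 6.55% lower and 5.13% higher. There, too, no member rose by any of the 3 tools, and 1 (Stat4) was higher at an unadjusted p under 0.05 in edgeR. In CD4 ThpokAD against CD8 control cells, Socs3 and Cish rose, 2 of 9 genes against 6.54% called, 4.63% higher and 1.91% lower. None of the 9 fell by edgeR, while 1 (Stat4) was lower at an unadjusted p under 0.05, and DESeq2 and limma-trend called it. DESeq2, which called 8.2%, 18.9% and 13.7% of all genes in these 3 comparisons, called 2, 5 and 5 of the 9. The libraries of the 2 groups did not overlap for 2, 6 and 5 of the 9 genes, beside 25.7%, 33.9% and 27.1% of all tested genes. The 3 comparisons share libraries and are not independent of each other, and the members were chosen with earlier results of these data known. The median log2 fold change of the 9 genes was -0.22, -0.44 and 0.23 in these 3 comparisons, beside 0.00, 0.01 and -0.01 over all tested genes.

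**Figure D1:**
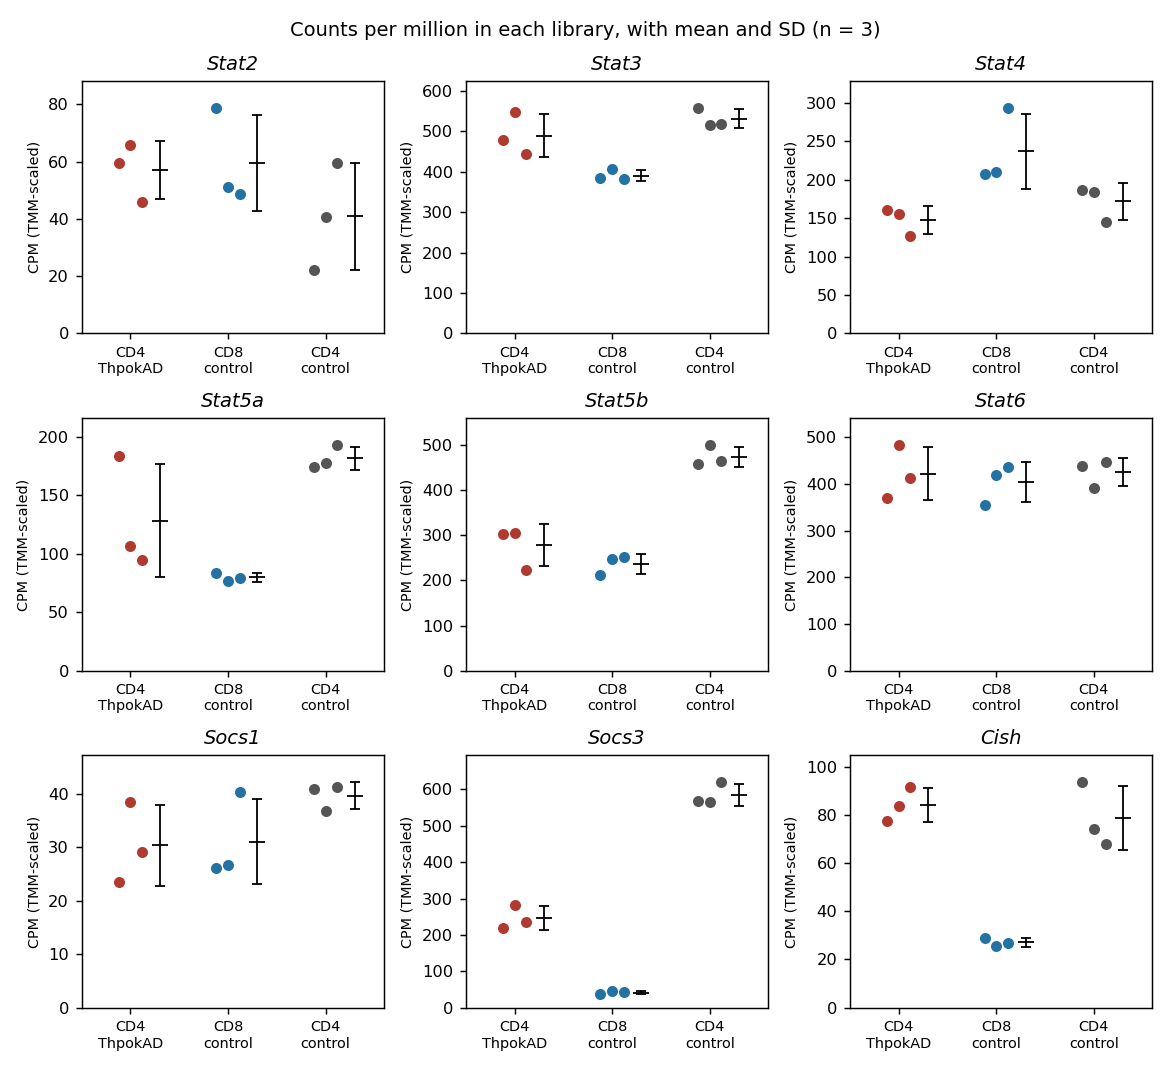
Levels of the 9 genes in each library, in TMM-scaled CPM on an axis that starts at 0 in every panel. Coloured points are single libraries and black bars are group means with SD (n = 3 per group), with CD4 ThpokAD at the left, CD8 control in the middle and CD4 control at the right. The Socs3 libraries form 3 separate groups, while those of Stat6 overlap.

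Socs3, which encodes the inhibitor that binds the shared receptor chain gp130 and thereby limits STAT3, had 220, 284 and 235 CPM in CD4 ThpokAD cells, 37.6, 44.6 and 42.1 CPM in CD8 control cells, and 569, 566 and 619 CPM in CD4 control cells. All 3 CD4 ThpokAD libraries lay below every CD4 control library and above every CD8 control library, with no overlap between any pair of groups. In CD4 ThpokAD cells Socs3 fell by 1.25 on the log2 scale relative to CD4 control cells (SE 0.13, 2.37-fold lower, edgeR adjusted p = 0.00145). It was 14.1-fold lower in CD8 control than in CD4 control cells (log2 fold change -3.82, SE 0.14, edgeR adjusted p = 1.9e-06). It was 5.94-fold higher in CD4 ThpokAD than in CD8 control cells (log2 fold change 2.57, SE 0.13, edgeR adjusted p = 1.95e-05). The 3 calls held under all alternatives run, including each library left out in turn, where the adjusted p for CD4 ThpokAD against CD4 control cells ran from 0.00297 to 0.0121.

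Cish encodes CIS, which is induced by STAT5 and binds receptors that STAT5 also docks on. It had 77.3, 83.7 and 91.4 CPM in CD4 ThpokAD cells, 29.0, 25.4 and 26.9 CPM in CD8 control cells, and 93.4, 74.3 and 67.9 CPM in CD4 control cells. The CD4 groups overlapped and both lay above all 3 CD8 control libraries. Cish was 3.11-fold higher in CD4 ThpokAD than in CD8 control cells (log2 fold change 1.64, SE 0.17, edgeR adjusted p = 0.000604) and 2.90-fold lower in CD8 control than in CD4 control cells (log2 fold change -1.54, SE 0.17, edgeR adjusted p = 0.000497). Between CD4 ThpokAD and CD4 control cells the log2 fold change was 0.10 (SE 0.16, edgeR adjusted p = 0.853). The feedback genes Socs3 and Cish thus stood differently in that comparison, although the difference between them was not tested. Cish shares 4.07% of its exon bases with Gm17040 and 7.46% with Gm17041, both on the opposite strand, and the libraries do not mark strand.

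Socs1 encodes an inhibitor that acts on the JAKs themselves, best known below interferon and the interleukin-2 family. Its levels were 23.6, 38.6 and 29.1 CPM in CD4 ThpokAD cells, 26.1, 26.8 and 40.3 CPM in CD8 control cells, and 40.9, 36.8 and 41.3 CPM in CD4 control cells. The groups overlapped in all 3 comparisons. Socs1 averaged 30.4 ± 7.56 CPM in CD4 ThpokAD cells, 31.1 ± 8.0 CPM in CD8 control cells and 39.6 ± 2.52 CPM in CD4 control cells (SD, n = 3 each), and edgeR adjusted p-values ran from 0.421 to 0.97. The SE of its log2 fold change between CD4 ThpokAD and CD4 control cells was 0.25, on a value of -0.38.

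**Figure D2:**
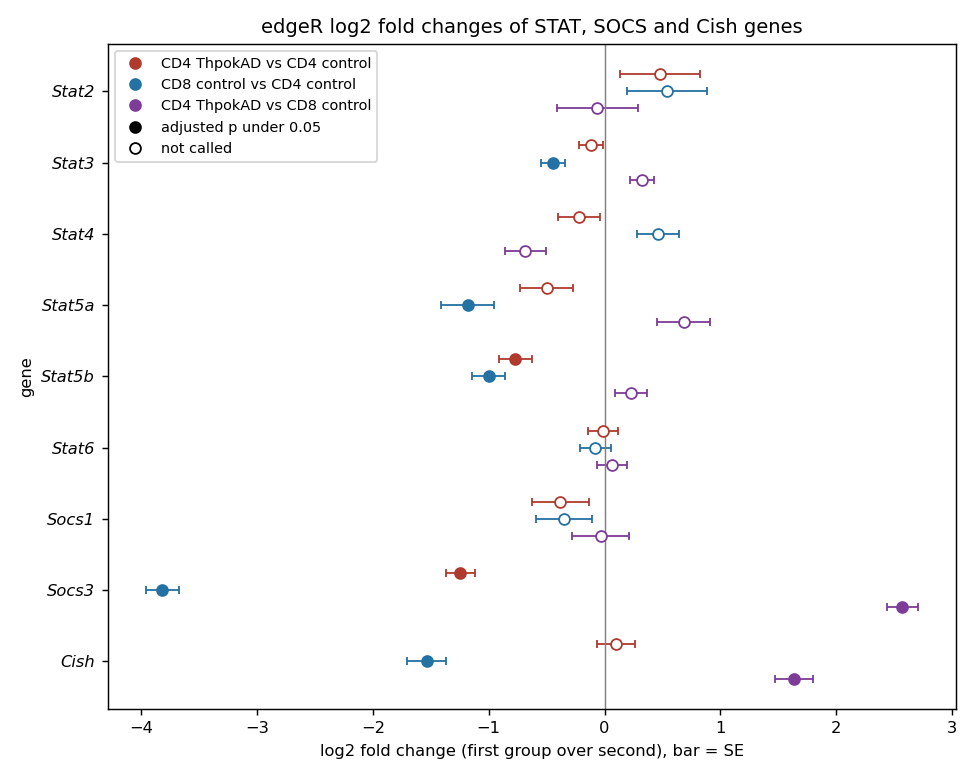
Fitted log2 fold changes of the 9 genes in the 3 comparisons, with bars of 1 SE and filled points where edgeR's adjusted p was under 0.05. Socs3 lies farthest from 0 in each comparison, at -1.25, -3.82 and 2.57.

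Stat5a and Stat5b are neighbouring genes whose proteins carry the signal of interleukin-2, interleukin-7 and interleukin-15. Stat5b had 304, 306 and 224 CPM in CD4 ThpokAD cells, 212, 247 and 252 CPM in CD8 control cells, and 458, 500 and 464 CPM in CD4 control cells. All CD4 control libraries lay above all others, and the CD4 ThpokAD and CD8 control libraries overlapped. Relative to CD4 control cells, Stat5b fell 1.71-fold in CD4 ThpokAD cells (log2 fold change -0.77, SE 0.14, edgeR adjusted p = 0.025). That call was lost without CD4 ThpokAD replicate 1 (adjusted p = 0.0626) or 3 (0.0578), and without CD4 control replicate 1 (0.0781), 2 (0.099) or 3 (0.0712). With DESeq2 the adjusted p was 1.08e-05, and the direction was the same in every alternative run. In CD8 control cells Stat5b fell by 1.00 on the log2 scale relative to CD4 control cells (SE 0.14, edgeR adjusted p = 0.00231), a call that held in every alternative run. CD4 ThpokAD set against CD8 control cells gave a log2 fold change of 0.23 (SE 0.14, edgeR adjusted p = 0.406).

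Stat5a had 183, 106 and 94.7 CPM in CD4 ThpokAD cells, 83.8, 76.2 and 79.5 CPM in CD8 control cells, and 174, 178 and 193 CPM in CD4 control cells. CD4 ThpokAD replicate 1 lay within the CD4 control range, while the other two CD4 ThpokAD libraries lay between both control groups. In CD8 control cells Stat5a was 2.27-fold lower than in CD4 control cells (log2 fold change -1.18, SE 0.23, edgeR adjusted p = 0.0114), also in every alternative run. For CD4 ThpokAD against CD4 control cells the log2 fold change was -0.50 (SE 0.23, edgeR adjusted p = 0.334). Without CD4 ThpokAD replicate 1 it was -0.86, with an adjusted p of 0.0319, so that 1 library decided the call. For CD4 ThpokAD against CD8 control cells it was 0.68 (SE 0.23, edgeR adjusted p = 0.123), with no overlap between the groups and an adjusted p of 0.0273 by DESeq2.

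Per kilobase of merged exons, Stat5b exceeded Stat5a in all 9 libraries. The ratio of Stat5b to Stat5a CPM per kilobase was 2.13, 3.71 and 3.05 in CD4 ThpokAD, 3.26, 4.18 and 4.08 in CD8 control and 3.39, 3.63 and 3.10 in CD4 control cells. The lowest ratio came from CD4 ThpokAD replicate 1, the library with the high Stat5a level, and the 3 groups overlapped. Merged exons span 5539 bases for Stat5b and 7133 for Stat5a, while the longest transcripts hold 5213 and 3958 bases. The size of the ratio thus depends on the length used. Stretches of 126 bases, the read length, were shared between the genes for 3.99% of positions in the longest Stat5b transcript and 0.913% of those in the longest Stat5a transcript, and reads from those stretches cannot be told apart.

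Stat3 had 478, 547 and 444 CPM in CD4 ThpokAD cells, 384, 406 and 381 CPM in CD8 control cells, and 557, 516 and 519 CPM in CD4 control cells. The CD4 groups overlapped, and all CD8 control libraries lay below both. In CD8 control cells Stat3 was 1.36-fold lower than in CD4 control cells (log2 fold change -0.44, SE 0.10, edgeR adjusted p = 0.0252). That call was lost without CD8 control replicate 1 (adjusted p = 0.0711) or 2 (0.0548), without CD4 control replicate 1 (0.0948), 2 (0.0696) or 3 (0.0652), and with no filter on low counts (0.0652), while DESeq2 gave 0.000181. In CD4 ThpokAD cells the log2 fold change was -0.12 against CD4 control (SE 0.10, edgeR adjusted p = 0.678) and 0.33 against CD8 control cells (SE 0.10, edgeR adjusted p = 0.106; 0.0142 by DESeq2). Stat3 and Stat5a run towards each other on chromosome 11 and share 72 exon bases at their ends, 0.756% of Stat3 and 1.01% of Stat5a exon bases, and the libraries do not mark strand.

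Stat4, the factor through which interleukin-12 promotes interferon gamma, had its highest levels in CD8 control cells. It had 161, 155 and 127 CPM in CD4 ThpokAD cells, 208, 210 and 293 CPM in CD8 control cells, and 187, 184 and 145 CPM in CD4 control cells. All 3 CD8 control libraries lay above all CD4 libraries, and the CD4 groups overlapped. The log2 fold change was -0.68 for CD4 ThpokAD against CD8 control (SE 0.18, edgeR adjusted p = 0.0573) and 0.46 for CD8 control against CD4 control cells (SE 0.18, edgeR adjusted p = 0.138), neither called by edgeR. In the first of these, DESeq2 gave an adjusted p of 0.00592 and limma-trend 0.0488. Without CD8 control replicate 3, the library at 293 CPM, the log2 fold change of CD8 control against CD4 control cells was 0.27. Stat4 shares 26.7% of its exon bases with Gm28177 on the same strand, a row of 58 counts over all libraries, against 38359 counts for Stat4. How reads from shared bases were counted is not known, so the 58 counts do not measure any reads lost to Stat4.

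Stat6 had 370, 483 and 413 CPM in CD4 ThpokAD cells, 355, 419 and 437 CPM in CD8 control cells, and 439, 392 and 448 CPM in CD4 control cells. The 3 groups overlapped, and the edgeR adjusted p-values were 0.98 for CD4 ThpokAD against CD4 control, 0.773 for CD8 control against CD4 control and 0.852 for CD4 ThpokAD against CD8 control cells. The SE of these log2 fold changes was 0.13. The sign of each of them turned when some single libraries were left out.

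Stat2 had 59.4, 65.7 and 45.9 CPM in CD4 ThpokAD cells, 78.7, 51.1 and 48.7 CPM in CD8 control cells, and 22.2, 40.8 and 59.7 CPM in CD4 control cells. Relative to its mean, its spread was the widest of the 9 genes in both control groups, and the 3 groups overlapped. Set against CD4 control cells, CD4 ThpokAD cells had a log2 fold change of 0.48 (edgeR adjusted p = 0.6), with an SE of 0.35, the largest of the 9 genes in that comparison.

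**Figure D3:**
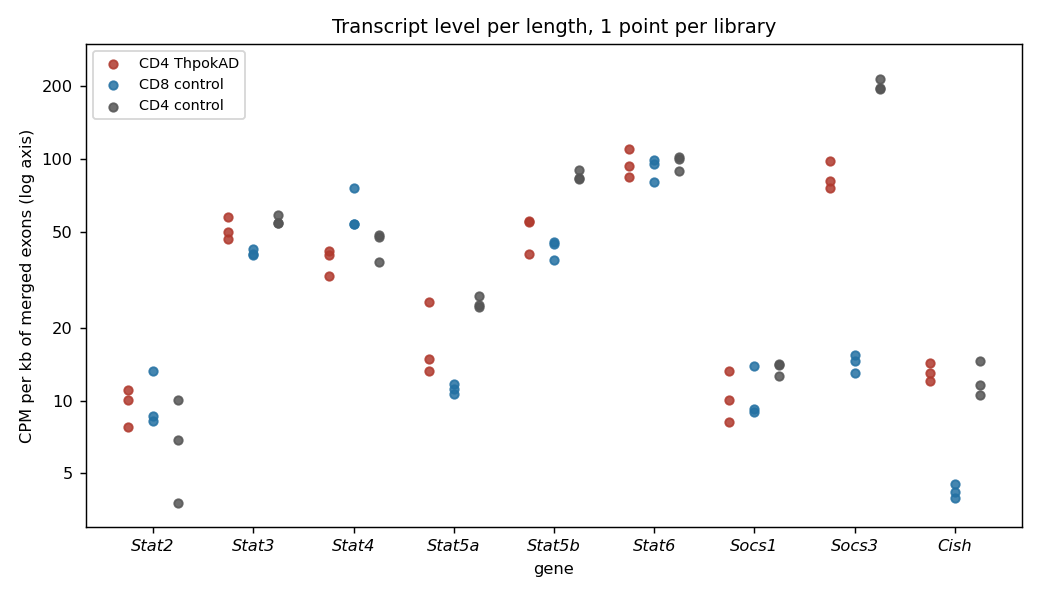
CPM per kilobase of merged exons for each of the 9 genes, with 1 point per library, on a log axis, and CD4 ThpokAD, CD8 control and CD4 control from left to right at each gene. In CD4 control cells Socs3 stands highest, and in CD8 control cells all its points lie below those of Stat3, Stat4, Stat5b and Stat6.

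Compared per kilobase of exon, Socs3 averaged 85.2 ± 11.4 CPM per kilobase in CD4 ThpokAD, 14.3 ± 1.22 in CD8 control and 202 ± 10.4 in CD4 control cells (SD, n = 3 each). Stat6 averaged 95.9, 91.7 and 96.9 CPM per kilobase in the same groups. The place of Socs3 among the 9 genes was thus first in CD4 control cells and second, with a spread that overlapped that of Stat6, in CD4 ThpokAD cells. In CD8 control cells Stat6, Stat4 (61.2), Stat5b (42.8) and Stat3 (41.0) lay above it. Stat5a, Cish, Socs1 and Stat2 were the 4 lowest genes in every group, at 18.0, 13.1, 10.5 and 9.62 CPM per kilobase in CD4 ThpokAD, 11.2, 4.22, 10.7 and 10.04 in CD8 control and 25.4, 12.2, 13.6 and 6.90 in CD4 control cells. Among these 4, Cish was lowest in CD8 control cells and Stat2 in both CD4 groups. These places hold for merged exons, which pool all annotated transcripts of a gene. Merged exons span 7133 bases for Stat5a, 6419 for Cish and 2891 for Socs3. The longest transcripts hold 3958, 4697 and 2552 bases in the same order. With another length the order of the genes could differ.

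**Figure D4:**
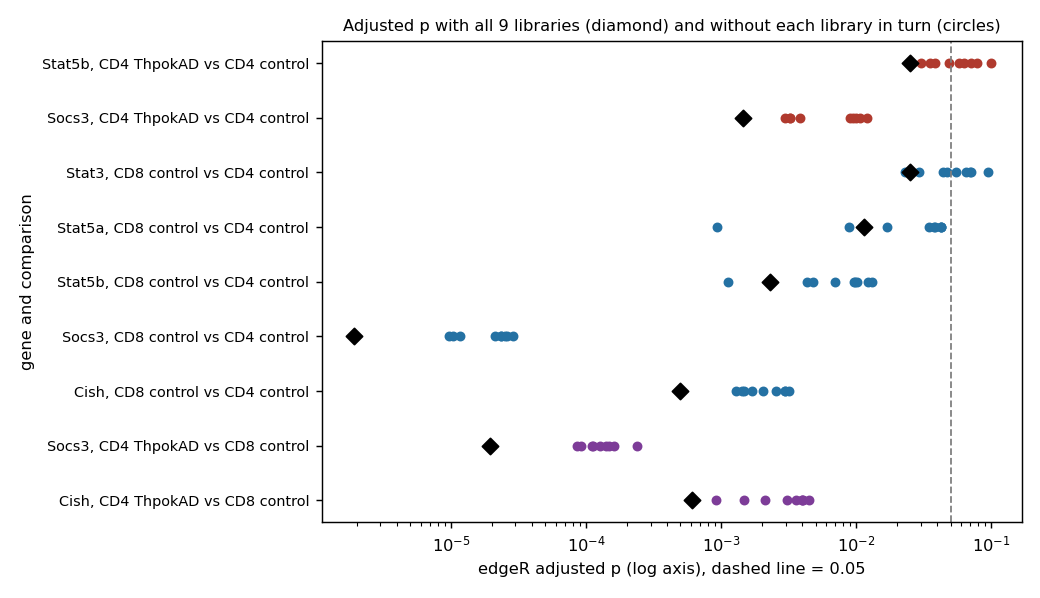
EdgeR adjusted p (log axis) of the 9 calls among the members, with all 9 libraries (black diamonds) and with each library left out in turn (circles, coloured by comparison), and the threshold of 0.05 as a dashed line. All circles of Socs3 and Cish lie left of the line, while those of Stat5b in CD4 ThpokAD against CD4 control cells and of Stat3 in CD8 control against CD4 control cells lie on both sides.

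The JAK kinases sit above the STATs. Jak1 averaged 2323 ± 294 CPM in CD4 ThpokAD cells, 2149 ± 224 CPM in CD8 control cells and 1652 ± 84.2 CPM in CD4 control cells, with edgeR adjusted p = 0.0673 for CD4 ThpokAD and 0.0714 for CD8 control, each against CD4 control cells. DESeq2 gave 0.0042 and 0.0393 for the same comparisons. Jak2 averaged 272 ± 78.9 CPM in CD4 ThpokAD cells, 206 ± 62.5 CPM in CD8 control cells and 466 ± 75.1 CPM in CD4 control cells, and was lower in CD8 control than in CD4 control cells (log2 fold change -1.18, edgeR adjusted p = 0.0253). That call was lost without CD8 control replicate 2 (0.0698) or 3 (0.0811) or CD4 control replicate 1 (0.0584), 2 (0.0925) or 3 (0.0531). Jak3, the kinase of the shared gamma chain, averaged 149 CPM in CD4 ThpokAD cells, 111 CPM in CD8 control cells, and 121 CPM in CD4 control cells, and Tyk2 averaged 152, 152 and 107 CPM in these groups, with no call for either. Of the 4 kinases, 0 passed in CD4 ThpokAD against CD4 control cells by edgeR (3 at an unadjusted p under 0.05, 2 by DESeq2), and 0 in CD4 ThpokAD against CD8 control cells (1 unadjusted, 0 by DESeq2). The 6 other STAT and SOCS rows, among them Socs2, Socs4, Socs5 and Socs7, gave 0 calls by edgeR, DESeq2 or limma-trend in all 3 comparisons. At an unadjusted p under 0.05 in edgeR, 0 were found in CD4 ThpokAD against CD4 control cells, 1 in CD8 control against CD4 control cells and 1 in CD4 ThpokAD against CD8 control cells.

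Of 20 receptor chains coupled to STATs, 19 were tested and Il23r was too low. In CD4 ThpokAD against CD4 control cells, 4 fell (Il4ra, Il7r, Il21r and Il6ra) and 1 rose (Il10ra). Il7r, the interleukin-7 receptor chain that keeps memory T cells alive through STAT5, averaged 315 ± 42.3 CPM in CD4 ThpokAD cells, 1243 ± 17.1 CPM in CD8 control cells and 1108 ± 176 CPM in CD4 control cells. In CD4 ThpokAD cells it fell relative to CD4 control cells (log2 fold change -1.81, edgeR adjusted p = 0.000381) and relative to CD8 control cells (log2 fold change -1.98, edgeR adjusted p = 8.17e-05). Il21r, whose ligand signals mainly through STAT3, averaged 509 ± 42.9 CPM in CD4 ThpokAD cells, 236 ± 13.8 CPM in CD8 control cells and 895 ± 178 CPM in CD4 control cells. Its edgeR adjusted p for CD4 ThpokAD against CD4 control cells was 0.0219, a call not checked with libraries left out. Il4ra, which couples to STAT6, averaged 266 ± 25.6 CPM, 135 ± 27.2 CPM and 576 ± 76.0 CPM in CD4 ThpokAD, CD8 control and CD4 control cells. Its edgeR adjusted p for CD4 ThpokAD against CD4 control cells was 0.0101, and 0.0519 without CD4 ThpokAD replicate 1.

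The interleukin-6 receptor genes had the same order of means as Socs3. So did Il4ra, Il21r, Il12rb2, Ifnar1 and Ifngr2 among the receptor genes, and Stat3, Stat5a, Stat5b and Stat6 among the members. Il6ra averaged 18.9 ± 5.65 CPM in CD4 ThpokAD cells, 5.93 ± 2.03 CPM in CD8 control cells and 80.8 ± 13.6 CPM in CD4 control cells, with edgeR adjusted p = 0.0113 for CD4 ThpokAD against CD4 control cells, a call lost without CD4 ThpokAD replicate 1 (0.057) or CD4 control replicate 2 (0.0507). Il6st, the gp130 chain, averaged 69.8 ± 26.2 CPM in CD4 ThpokAD cells, 22.8 ± 10.7 CPM in CD8 control cells and 199 ± 39.3 CPM in CD4 control cells, with edgeR adjusted p = 0.0871 for CD4 ThpokAD against CD4 control cells. Il10ra, which couples to STAT3, stood the other way, at 121 ± 24.1 CPM in CD4 ThpokAD cells, 150 ± 31.5 CPM in CD8 control cells and 48.1 ± 9.06 CPM in CD4 control cells. It was higher in CD4 ThpokAD than in CD4 control cells (log2 fold change 1.33, edgeR adjusted p = 0.0158), a call lost without CD4 ThpokAD replicate 1 (0.0706) or 2 (0.0534) or CD4 control replicate 1 (0.0777) or 3 (0.0688).

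In CD8 control against CD4 control cells, 8 receptor genes fell and 2 rose (Il10ra and Il10rb). The fallen ones were Il4ra, Il9r, Il21r, Il6ra, Il6st, Ifnar1, Ifngr1 and Ifngr2. Ifngr1, the ligand-binding chain for interferon gamma, averaged 1583 ± 158 CPM in CD4 ThpokAD cells, 577 ± 12.7 CPM in CD8 control cells and 1573 ± 227 CPM in CD4 control cells (edgeR adjusted p = 0.000132 for CD8 control against CD4 control cells). Il9r had no count in any CD8 control library. Set against a floor of 3 counts summed over that group, it was at least 155-fold lower in CD8 control than in CD4 control cells and at least 234-fold higher in CD4 ThpokAD than in CD8 control cells, bounds that cover counting error only. In CD4 ThpokAD against CD8 control cells, 7 receptor genes rose and 2 fell (Il7r and Il10rb). The median log2 fold change over the 19 was -0.14, -0.13 and 0.18 in the 3 comparisons in the order given above.

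**Figure D5:**
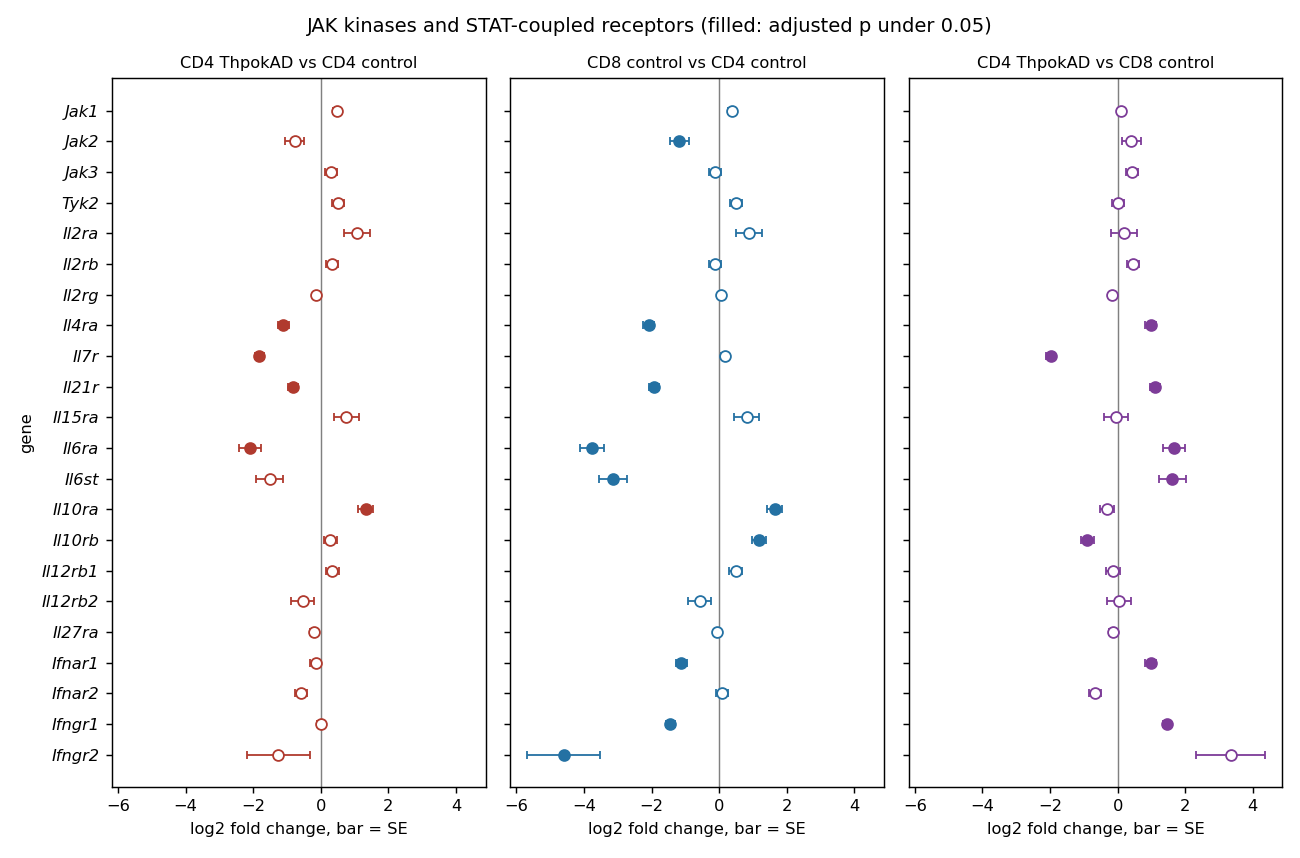
Fitted log2 fold changes of the JAK kinases and STAT-coupled receptor genes, 1 panel per comparison, with bars of 1 SE and filled points where edgeR's adjusted p was under 0.05. Il7r is low in both comparisons of CD4 ThpokAD cells, and Il6ra lies at -2.10, -3.76 and 1.66 in the 3 panels from left to right. Il9r is left out because it had no count in CD8 control cells.

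Among 20 genes known as STAT targets in T cells, 5 rose and 1 fell in CD4 ThpokAD against CD4 control cells. The risen ones were Ccnd2, Ccnd3, Gzmb, Tbx21 and Prdm1, and the fallen one was Bcl2, the survival factor. The calls of Ccnd2 and Bcl2 were not checked with libraries left out. Gzmb, the cytotoxic protease granzyme B, averaged 721 ± 88.2 CPM in CD4 ThpokAD cells, 301 ± 62.9 CPM in CD8 control cells and 45.2 ± 9.43 CPM in CD4 control cells (edgeR adjusted p = 0.000122 for CD4 ThpokAD against CD4 control cells). Tbx21, which encodes the Th1 factor T-bet, averaged 607 ± 79.6 CPM in CD4 ThpokAD cells, 559 ± 95.6 CPM in CD8 control cells and 292 ± 47.1 CPM in CD4 control cells (edgeR adjusted p = 0.014 for CD4 ThpokAD against CD4 control cells), a call lost without CD4 ThpokAD replicate 3 (0.0574) or CD4 control replicate 1 (0.0635) or 3 (0.063). Pim1, a kinase gene induced by STAT3 and STAT5, averaged 92.9 ± 20.2 CPM in CD4 ThpokAD cells, 27.7 ± 6.12 CPM in CD8 control cells and 162 ± 12.5 CPM in CD4 control cells. It rose in CD4 ThpokAD against CD8 control cells (log2 fold change 1.74, edgeR adjusted p = 0.00178) and fell in CD8 control against CD4 control cells (log2 fold change -2.54, edgeR adjusted p = 0.000126), and its edgeR adjusted p for CD4 ThpokAD against CD4 control cells was 0.0869. In CD8 control against CD4 control cells, 4 targets rose and 7 fell, and in CD4 ThpokAD against CD8 control cells, 7 rose and 2 fell. The targets thus did not move in 1 direction in any comparison, with medians of 0.04, -0.11 and 0.28 on the log2 scale.

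Of 10 other regulators, 0 passed in CD4 ThpokAD against CD4 control cells by edgeR, DESeq2 or limma-trend (3 were lower at an unadjusted p under 0.05 in edgeR). Usp18, which restrains the type I interferon receptor, averaged 43.2 ± 5.44 CPM in CD4 ThpokAD cells, 118 ± 10.4 CPM in CD8 control cells and 47.1 ± 6.36 CPM in CD4 control cells (edgeR adjusted p = 0.00128 for CD4 ThpokAD against CD8 control and 0.00115 for CD8 control against CD4 control cells). The phosphatase gene Ptpn1 averaged 318 ± 24.2 CPM in CD4 ThpokAD cells, 229 ± 21.0 CPM in CD8 control cells and 364 ± 15.7 CPM in CD4 control cells, and fell in CD8 control against CD4 control cells (edgeR adjusted p = 0.00478). Its call in CD4 ThpokAD against CD8 control cells (edgeR adjusted p = 0.036) was lost in 8 of the 9 fits that left out 1 library, all but that without CD8 control replicate 1, with adjusted p-values of 0.0631 to 0.119, and also with no filter on low counts (0.0813) and with the 6 libraries alone (0.0897). Pias2 fell in CD8 control against CD4 control cells (edgeR adjusted p = 0.0286), a call lost without CD8 control replicate 2 (0.0798) or 3 (0.0919) or CD4 control replicate 2 (0.101) or 3 (0.0897). The 5 partner genes (Irf9, Irf1, Nmi, Crebbp and Ep300) gave 0 calls by edgeR or limma-trend in any comparison, and at an unadjusted p under 0.05 edgeR gave 0, 3 and 2 in the 3 comparisons, while DESeq2 called 1, in CD8 control against CD4 control cells. Over all 63 tested genes of these lists, 17.5%, 39.7% and 31.7% were called in the 3 comparisons, against the backgrounds of 2.74%, 11.7% and 6.54%. The lists were chosen with earlier results of these data known, so these shares are no test of the pathway.

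The genes whose pattern over the 9 libraries was closest to that of a member were ranked by the root mean square difference of log2 CPM, each gene centred on its own mean. For Socs3 these were Cd69 (0.249), Zc3h12a (0.261) and Nfkbid (0.268), where Cd69 is an early activation marker and the other two are regulators of NF-kappaB signalling or of mRNA decay. For Cish they were Snx18 (0.132), Grasp (0.143) and Ifngr1 (0.146). Stat5b came closest to Tnfrsf18 (0.128), Rela (0.14) and Sdcbp2 (0.15). Stat5a came closest to Marcks (0.141), Dleu2 (0.214) and Tmem50b (0.219). Stat3 came closest to Cdk17 (0.068), Pnisr (0.072) and Upf2 (0.084).

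Markers of other cells were measured in the same libraries. The summed level of 5 regulatory T cell markers was 411 to 569 CPM in CD4 ThpokAD, 31.5 to 42.1 CPM in CD8 control and 319 to 347 CPM in CD4 control libraries, and Lrrc32 had no count in CD8 control cells. That of 8 dendritic cell markers, which include MHC class II genes, was 764 to 1609 CPM in CD4 ThpokAD, 220 to 344 CPM in CD8 control and 742 to 1397 CPM in CD4 control libraries, with Siglech at 0 in both CD4 groups. Both sums were lower in CD8 control than in CD4 libraries, as were Socs3 and Cish, and their part in those differences was not tested. In the CD4 groups the largest members of these sums were Cd74 and Ctla4. Cd74 averaged 781, 164 and 582 CPM and Ctla4 321, 7.96 and 263 CPM in CD4 ThpokAD, CD8 control and CD4 control cells. Not every marker followed its sum. Xcr1 averaged 17.6, 13.2 and 10.1 CPM, Clec9a 0.0912, 1.99 and 1.09 CPM, and Il2ra 28.2, 24.8 and 13.5 CPM in these groups. The sum of 8 NK cell markers was 221 to 279 CPM in CD4 ThpokAD, 262 to 298 CPM in CD8 control and 54.5 to 65.3 CPM in CD4 control libraries, with Ncr1, Klra4 and Klra8 at 0 in CD4 control and Klra8 at 0 in CD4 ThpokAD cells. The sum of 10 myeloid markers was 339 to 420 CPM in CD4 ThpokAD, 126 to 353 CPM in CD8 control and 171 to 295 CPM in CD4 control libraries, with no overlap between the CD4 groups for the NK, myeloid and regulatory T cell sums. Of the NK cell markers, Eomes averaged 94.0, 89.6 and 7.60 CPM and Klrb1c 69.1, 122 and 11.5 CPM in CD4 ThpokAD, CD8 control and CD4 control cells. Fcer1g averaged 28.8, 8.26 and 19.5 CPM and Tyrobp 32.0, 17.1 and 20.6 CPM in these groups. Unlike the NK sum, both had lower means in CD8 control than in CD4 control cells. Of the myeloid markers, Itgam averaged 34.6, 33.0 and 1.87 CPM in the same groups, and Csf1r 113, 30.2 and 50.5 CPM. Only Itgam, Lyz2 and Fcgr3 of the myeloid markers had a higher mean in CD8 control than in CD4 control cells. S100a8 and S100a9 had lower means in CD4 ThpokAD than in CD4 control cells, unlike the other myeloid markers. Of the regulatory T cell markers, Lrrc32 averaged 40.1 ± 2.00 CPM in CD4 ThpokAD cells and 2.78 ± 1.34 CPM in CD4 control cells (SD, n = 3 each; edgeR adjusted p = 0.00868), and Foxp3 averaged 29.2 ± 19.4 CPM in CD4 ThpokAD cells and 2.28 ± 2.26 CPM in CD4 control cells (edgeR adjusted p = 0.207). The part of these 3 lists in the lower Socs3 and Stat5b of CD4 ThpokAD cells was not tested. The B cell sum was at most 55.5, 60.2 and 45.4 CPM in CD4 ThpokAD, CD8 control and CD4 control libraries, and that of T cell markers was at least 4503, 6103 and 5324 CPM.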

How the data were processed

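RNA of sorted T cells was amplified from low input and made into libraries without strand information, with paired reads of 126 bases, per the labels' protocols. STAR, HTSeq, Trimmomatic, DESeq2, bcl2fastq 2.17 and the mm10 build appear in the submitters' processing notes, with no role given. The deposited table holds raw counts per gene, made by the authors and not normalized. A second table, a signal scaled by the authors, was not used here. No source used here gives the strand setting or the annotation release.

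Samples were grouped by title. Labels do not tie replicates to separate animals, so p-values measure only how these samples vary, which may be technical spread. Counts were tested with edgeR 4.0.16 (R 4.3.3): filterByExpr by group (minimum count 10, minimum total 15), TMM scaling, all 9 libraries in 1 quasi-likelihood fit and Benjamini-Hochberg adjustment over all genes tested. SEs were derived from the fold change and the F statistic. DESeq2 1.42.0, limma 3.58.1 and the other alternatives are given in the closing section. Scripts were tested on simulated data. Exon lengths and overlaps are from GENCODE M21, promoters from RefSeq (GRCm38). The members, lists and tests were chosen with earlier results of these data known. Genes named are the members, Zbtb7b, Cd4 and Cd8a, the JAK kinases, the called genes of each list that rank first by adjusted p (up to 4), and the 3 genes closest in pattern to each called member. Genes of a list given by name beyond these, Il6st among them, were chosen after their values were seen. Alternatives were run for the members, the JAK kinases and, in each comparison, its own first-ranked called genes of each list. Other calls were not checked in this way.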

Additional observations from a re-analysis of the deposited data

How the results depend on the processing

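Socs3 in all 3 comparisons, Cish in both comparisons with CD8 control cells, and Stat5a and Stat5b in CD8 control against CD4 control cells kept direction and call under every alternative run. DESeq2 called 1290, 2977 and 2161 genes in CD4 ThpokAD against CD4 control, CD8 control against CD4 control and CD4 ThpokAD against CD8 control cells, where edgeR called 431, 1839 and 1030, and 5 members in the last of these in place of 2. Of the calls in CD4 ThpokAD against CD4 control cells, 66.1% were higher by edgeR and 58.3% by DESeq2. Leaving out 1 library gave 181 to 477, 1058 to 1667 and 589 to 788 calls, and 1 to 2, 4 to 5 and 2 to 2 members; each refit that leaves 2 libraries in a group pools the spread over all groups.

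Same-numbered libraries did not deviate together (correlations of -0.043 to 0.06), so the counts gave no sign that the numbers pair the samples. A shared animal or day with a small effect is not excluded by this, and the labels leave it open. With the replicate number as a block, 281 and 684 genes were called in CD4 ThpokAD against CD4 control and against CD8 control cells, and 1 member, Socs3, in the first; Stat5b had an adjusted p of 0.059 there. The block also ended the calls of Il10ra in CD4 ThpokAD against CD4 control cells (0.0554), Pias2 in CD8 control against CD4 control cells (0.0754) and Ptpn1 in CD4 ThpokAD against CD8 control cells (0.0586).

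Signs turned for values near 0 that no setting called. The log2 fold changes ran over -0.125 to 0.0637 for Stat6 in CD4 ThpokAD against CD4 control cells, -0.145 to 0.00888 for Stat6 in CD8 control against CD4 control cells, -0.0456 to 0.142 for Stat6 in CD4 ThpokAD against CD8 control cells, -0.191 to 0.1802 for Stat2 in CD4 ThpokAD against CD8 control cells, -0.24 to 0.198 for Socs1 in CD4 ThpokAD against CD8 control cells, -0.2004 to 0.115 for Tyk2 in CD4 ThpokAD against CD8 control cells and -0.257 to 0.0396 for Jak3 in CD8 control against CD4 control cells when 1 library was left out. Tyk2 in CD4 ThpokAD against CD8 control cells was 0.0267 with RLE scaling, 0.0266 with DESeq2 and 0.0161 with the 6 libraries alone, against -0.00075. The cause was not tested. Of the other comparisons of a single gene with its main value, 560 of those that left out 1 library and 391 of the rest kept their direction and side of the threshold.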
